A study of Mus musculus with 13 samples.

Results

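The genes described here encode 9 proteins of homologous recombination and the Fanconi anaemia pathway: Palb2, Brca1, Brca2, Bard1, Fanca, Fancc, Fancg, Fancl and Fancd2. They are 9 of the 22367 protein-coding genes of the mouse annotation GENCODE vM1, and all 9 were found in it by symbol. They were chosen by name, because the start site of Palb2 holds one of the highest-scoring peaks of endogenous AEBP2, so the Palb2 peak is a description and not a finding. For each gene, peaks were counted that overlapped a window reaching 1 kb to each side of the transcription start, and sites with AEBP2 were divided by the presence or absence of H3K27me3. The choice was made with the peaks known, so no test was run on these genes, and each count stands beside the share of all protein-coding start sites with the same peaks.

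The data are ChIP-seq peak lists of AEBP2, an accessory subunit of Polycomb repressive complex 2 (PRC2), and of H3K27me3, the histone mark that PRC2 deposits, in mouse embryonic stem cells (mESCs). All 5 lists came from wild-type cells of a male 129/1 line, grown on gelatine in medium with serum and LIF, with endogenous AEBP2 in 2 replicates, H3K27me3 in 2 replicates and FS2-AEBP2 in 1 sample without a replicate. FS2-AEBP2 is AEBP2 with a Flag-StrepII tag, expressed from a pCAG plasmid and precipitated by a separate protocol. For the tagged protein E14 mESCs are named in the published methods, whereas the labels name the 129/1 line. The other 8 of the 13 samples (SUZ12, inputs and AEBP2 knockout cells) were not analysed here. The labels name the H3K27 antibody without a methylation state, and the mark is called H3K27me3 here after the published methods. The replicate numbers of the H3K27me3 lists are uncertain. Nothing says whether replicates came from separate cultures.

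Homologous recombination repairs a broken chromosome by copying the intact sister, and cells use it mainly after DNA replication. BRCA1 and BARD1 form a ubiquitin ligase, PALB2 joins BRCA1 to BRCA2, and BRCA2 acts with them in the search for the intact copy. The Fanconi pathway handles DNA crosslinks: a core complex that includes FANCA, FANCC, FANCG and the ubiquitin ligase FANCL modifies FANCD2, and recombination proteins complete the repair. These are housekeeping functions of dividing cells, whereas the known PRC2 targets in mESCs are mostly silent developmental genes with CpG islands.

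The DNA just around 7 start sites is shown first, each as the 94 bases before the start and the first 30 of the transcript, which is the distance from Palb2 to the next gene plus the start of the transcript. Palb2, Rad54l, Fan1 and Slx4 have AEBP2 peaks in both replicates over the whole stretch. For Fancl the second annotated start is shown, since its AEBP2 peak lies there. Brca1 and Brca2 had no peak in any list and are shown for contrast. Capitals mark the word ATCGA on either strand, which is described with its counts later on.
Palb2: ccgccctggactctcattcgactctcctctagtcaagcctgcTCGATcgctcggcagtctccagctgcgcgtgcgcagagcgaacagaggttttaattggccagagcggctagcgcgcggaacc
Rad54l: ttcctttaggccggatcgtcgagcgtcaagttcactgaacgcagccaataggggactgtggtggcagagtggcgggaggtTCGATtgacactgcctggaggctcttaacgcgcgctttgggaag
Fan1: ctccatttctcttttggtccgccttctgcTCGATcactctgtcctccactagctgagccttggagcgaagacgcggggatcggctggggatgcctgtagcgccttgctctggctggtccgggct
Slx4: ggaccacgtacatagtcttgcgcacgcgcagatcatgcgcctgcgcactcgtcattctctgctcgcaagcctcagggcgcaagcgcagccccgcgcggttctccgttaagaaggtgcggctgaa
Fancl: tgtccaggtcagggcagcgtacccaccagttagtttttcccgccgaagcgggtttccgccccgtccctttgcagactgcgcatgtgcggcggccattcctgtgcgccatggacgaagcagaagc
Brca1: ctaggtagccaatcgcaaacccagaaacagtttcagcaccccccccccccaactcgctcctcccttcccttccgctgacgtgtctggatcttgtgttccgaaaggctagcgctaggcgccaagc
Brca2: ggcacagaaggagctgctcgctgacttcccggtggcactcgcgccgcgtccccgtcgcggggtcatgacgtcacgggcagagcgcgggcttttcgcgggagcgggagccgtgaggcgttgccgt
In the mm9 build the stretch of Palb2 is chr7:129276431-129276554 (minus strand), that of Rad54l chr4:115796266-115796389 (minus), that of Fan1 chr7:71518952-71519075 (minus) and that of Slx4 chr16:4003741-4003864 (minus). That of Fancl is chr11:26287108-26287231 (plus), that of Brca1 chr11:101413240-101413363 (minus) and that of Brca2 chr5:151325111-151325234 (plus). The stretches held 13 CpG dinucleotides for Palb2, 10 for Rad54l, 8 for Fan1, 15 for Slx4, 11 for Fancl, 7 for Brca1 and 19 for Brca2. The stretch with most CpGs, that of Brca2, had no AEBP2 peak, and Fan1 with 8 had one in both replicates. Whether CpG content bears on AEBP2 binding was not tested.

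Palb2 (ENSMUSG00000044702, chr7:129250776-129276460, minus strand) had the highest-scoring AEBP2 peaks of the 9. Its peak in AEBP2 replicate 1 ran from 129276138 to 129276816, measured 679 bp and had a score of 122, the fourth highest of 2877 peaks. Its peak in AEBP2 replicate 2 ran from 129276144 to 129276887, measured 744 bp and had a score of 189, the second highest of 6779. The score is a whole number given by the authors' peak caller whose scale is not stated, so it ranks peaks only within a list. By length the Palb2 peaks were unremarkable, longer than 32.4% of the replicate 1 list and 44.5% of the replicate 2 list.

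The peaks of both replicates sat on the start site itself. Along the gene, the peak of replicate 1 reached from 356 bp before the start to 322 bp after it, and that of replicate 2 from 427 bp before to 316 bp after. The centres lay 17 bp and 55.5 bp before the start. Of the 679 bp in replicate 1, 227 bp were annotated Palb2 exon (48 bp of it coding), 96 bp were intron and 356 bp lay upstream of the gene. The island here, a CpG-island-like stretch of 1050 bp (129275950 to 129276999), contained the start site and both peaks.

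The Palb2 promoter is shared. Dctn5, which encodes a subunit of the dynactin motor complex, starts on the opposite strand at 129276555, with 94 bases between the starts, and both peaks cover both starts. The peaks can therefore not be assigned to one of the genes. No FS2-AEBP2 peak and no H3K27me3 peak of either replicate lay in the Palb2 window. The nearest H3K27me3 peak was 44.6 kb upstream in replicate 1, with a length of 301 bp and the lowest score of its list (1), and 156 kb upstream in replicate 2, at Prkcb. The nearest FS2-AEBP2 peak was 738 kb away. H3K27me3 peaks covered 0.301% of the 100 kb on either side of the Palb2 start in replicate 1 and 0% in replicate 2, where the median over all protein-coding genes was 0.661% and 0.548%.

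**Figure D1:**
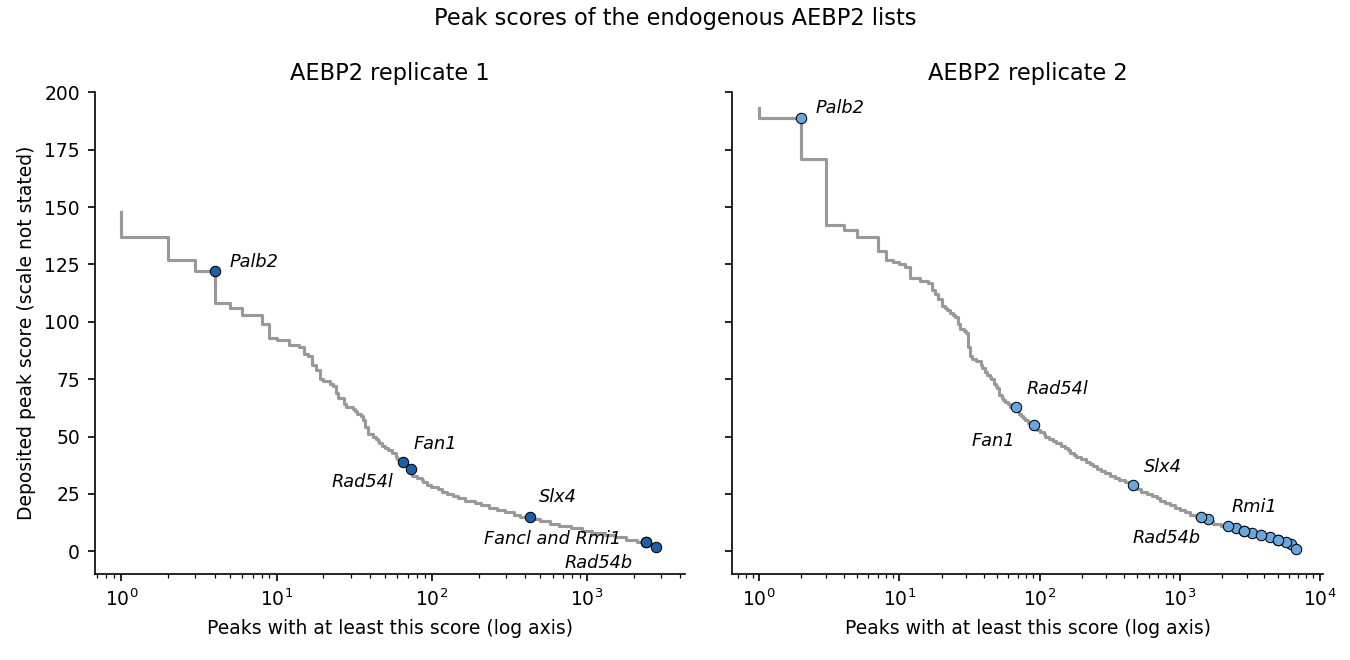
Deposited peak score (y axis, scale not stated) against the number of peaks with at least that score (x axis, log scale) in the AEBP2 replicates; the grey line is the whole list and the points are peaks at start sites of homologous recombination and Fanconi genes. Palb2 stands near the head of both lists with scores of 122 and 189, Fan1 and Rad54l lie between 36 and 63, and Fancl has a score of 4.

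Brca1 and Bard1, whose products form a ubiquitin ligase, had no peak of any list in their windows. Brca1 (ENSMUSG00000017146, chr11:101350078-101413269, minus strand) shares its promoter with Nbr1, which encodes an autophagy receptor and starts 194 bp away on the opposite strand. Like that of Palb2, its window holds a CpG-island-like region, with a GC content of 51.9% against 48.1% and a CpG ratio (observed over expected) of 0.651 against 0.647. The nearest AEBP2 peak of replicate 2 was 86.1 kb away at Rnd2, with the lowest score of its list, and that of replicate 1 was 288 kb away. The nearest H3K27me3 peaks were 79.8 kb and 271 kb away. Bard1 (ENSMUSG00000026196, chr1:71074072-71149720, minus strand) lay far from every list: its nearest H3K27me3 peaks were 903 kb and 1182 kb away, and its nearest AEBP2 peaks 1726 kb and 1204 kb. The AEBP2 peak 1204 kb away was at the start of Xrcc5, which encodes the Ku80 subunit of end joining.

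Brca2 (ENSMUSG00000041147, chr5:151325205-151372321, plus strand), whose product binds PALB2, also had no peak in its window. H3K27me3 was called in both replicates 69.3 kb and 69.5 kb downstream, beyond the end of Brca2 at N4bp2l1, with lengths of 4882 bp and 4545 bp. AEBP2 was called in both replicates 151 kb downstream at the start of Pds5b, a cohesin regulator, with a score of 9 in replicate 1 and 35 in replicate 2. Brca1 and Brca2, whose products bind PALB2, therefore had no AEBP2 peak within 1 kb of their starts in these lists. A peak is listed only above the authors' threshold, so no peak is not the same as no binding.

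Of the Fanconi core complex genes, Fanca, Fancc and Fancg had no peak of any list within 1 kb of the start of the gene record. Fancl had one and is described below. Fanca (ENSMUSG00000032815, chr8:125792200-125842476, minus strand) had its nearest AEBP2 peak 14.1 kb upstream at Spire2, in replicate 2 and with a score of 5. Fancg (ENSMUSG00000028453, chr4:43015215-43023378, minus strand) had its nearest AEBP2 peak 15.1 kb upstream at Pigo, in replicate 2 and with a score of 6. Both were low-scoring peaks at the start of another gene. Fancg was the member with most H3K27me3 around it, with 9.13% and 8.28% of the 100 kb on either side covered, yet the nearest such peak was 48.8 kb away.

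Fancc (ENSMUSG00000021461, chr13:63406017-63598586, minus strand) is the only one of the 9 without a CpG-island-like region in its window, and its annotated transcripts begin at 11 different sites. An AEBP2 peak of replicate 2, 299 bp long with a score of 10 that was above 63.1% of its list, lay 65.5 kb inside the gene over a start site at 63532991. This inner start lies in a CpG-island-like region from 63532112 to 63533401, and 224 bp of the peak are exon without coding sequence. Replicate 1 had no peak there. On the other side of Fancc lies Ptch1, the Hedgehog receptor gene, whose own start window held a peak of all 5 lists. The nearest edges lay 74.4 kb from the Fancc start for AEBP2 replicate 1, 74.0 kb for FS2-AEBP2, and 71.9 kb and 71.5 kb for H3K27me3. The H3K27me3 peaks at Ptch1 measured 8265 bp and 9322 bp, and the start of Fancc lies outside them.

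Fancl (ENSMUSG00000004018, chr11:26286135-26371876, plus strand), which encodes the ubiquitin ligase of the pathway, was the other gene counted with AEBP2. Its peak in replicate 1, from 26287095 to 26287512, measured 418 bp with a score of 4, above 16.3% of the list. It entered the window by 41 bp, from 960 bp after the start of the gene record. In replicate 2 the peak lay just outside, from 26287260 to 26287502 and 1125 bp after the start with a score of 6, above 35.2% of the list. These are the values on either side of the 1 kb limit. The start of the gene record lies in AT-rich DNA (36.4% GC), while a second start at 26287202 lies inside a CpG-island-like region from 26286945 to 26287804 and under the peak of replicate 1. Counted from every coding transcript start, Fancl had AEBP2 in both replicates. Of the 418 bp in replicate 1, 216 bp were exon (96 bp of it coding) and the rest intron. The nearest H3K27me3 peaks were 795 kb and 792 kb away, and the nearest FS2-AEBP2 peak 2221 kb.

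Fancd2 (ENSMUSG00000034023, chr6:113481676-113547011, plus strand), which encodes the substrate that the core complex modifies, had no peak in its window. It starts 44 bp from Tmem111 on the opposite strand, the closest pair of starts among the 9. Its nearest AEBP2 peak was 36.4 kb upstream in replicate 2 and 454 kb upstream in replicate 1, and its nearest H3K27me3 peaks were 248 kb and 60.7 kb upstream. Closely paired starts over a CpG island were thus present at Palb2, Brca1 and Fancd2, and of these only Palb2 had an AEBP2 peak.

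**Figure D2:**
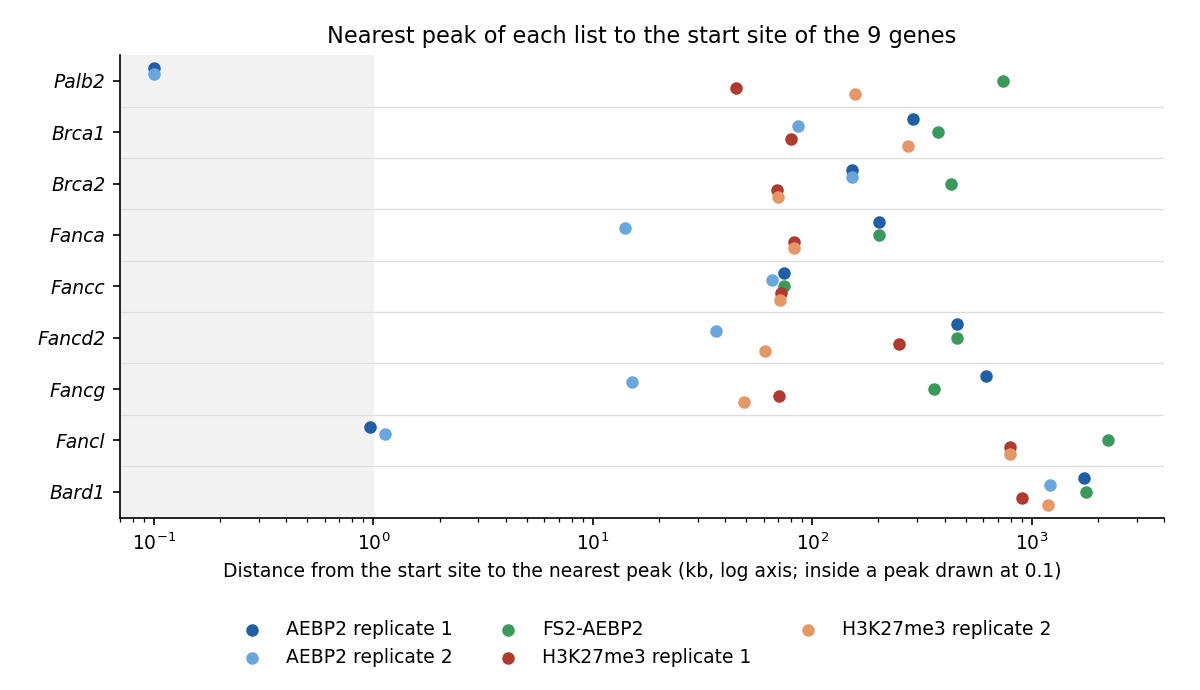
Distance in kb (log axis) from the start site of each of the 9 genes to the nearest peak of each list; points at 0.1 are start sites inside a peak and the shaded band is the 1 kb window. Only Palb2 and Fancl have points in the band, and every H3K27me3 point lies at 44.6 kb or more.

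Across the 9 genes, AEBP2 replicate 1 had a peak at 2 starts (Palb2 and Fancl), and 9.08% of all protein-coding starts had one. AEBP2 replicate 2 had a peak at 1 (Palb2), against 22.3% of all. Both AEBP2 replicates had a peak at 1, against 8.44% of all. FS2-AEBP2 had a peak at 0 of the 9, against 6.53%, and H3K27me3 at 0 of the 9 in each replicate, against 17.0% in replicate 1 and 17.7% in replicate 2, and 19.8% in either. AEBP2 of either replicate without H3K27me3 was found at 2 of the 9, against 11.5% of all, and AEBP2 of both replicates without H3K27me3 at 1, against 2.40%. With 9 genes, 1 of them chosen for its peak, these counts do not set the group apart from other genes.

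Over all 9, the distance to the nearest peak outside the window varied widely. The 9 genes had their nearest H3K27me3 peak between 44.6 and 903 kb from the start in replicate 1 (median 79.8 kb) and between 48.8 and 1182 kb in replicate 2 (median 82.5 kb). The nearest FS2-AEBP2 peak lay between 74.0 and 2221 kb away (median 429 kb). The 7 genes without a peak of AEBP2 replicate 1 had their nearest between 74.4 and 1726 kb away (median 288 kb), and the 8 without one of replicate 2 between 1.13 and 1204 kb (median 50.9 kb). The replicate 2 list has 6779 peaks and that of replicate 1 has 2877, and the depth behind either is unknown. No H3K27me3 peak lay within 100 kb of the start at 3 of the 9 in replicate 1 (Fancd2, Fancl and Bard1), against 44.4% of all protein-coding genes, and at 4 in replicate 2 (Palb2, Brca1, Fancl and Bard1), against 44.5%.

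A CpG-island-like region lay in 8 of the 9 windows, all but that of Fancc, against 55.1% of all. Among the 12322 protein-coding starts with such a region, AEBP2 of both replicates was found at 14.9%, AEBP2 of replicate 2 at 39.0%, AEBP2 of either replicate without H3K27me3 at 20.3% and H3K27me3 at 24.5% and 27.5% in the replicates. Bard1 had the highest GC content of the 9 windows (53.5%) and Fancl the lowest (36.4%), and the observed to expected CpG ratio ran from 0.121 in Fancl to 0.690 in Brca2. Brca1 (0.651), Brca2 (0.690) and Bard1 (0.644) had CpG ratios close to that of Palb2 (0.647) and no AEBP2 peak. Over all protein-coding starts, AEBP2 of both replicates was found at 14.9% with a CpG-island-like region and at 0.488% without one. Whether base composition bears on AEBP2 binding was not tested.

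**Figure D3:**
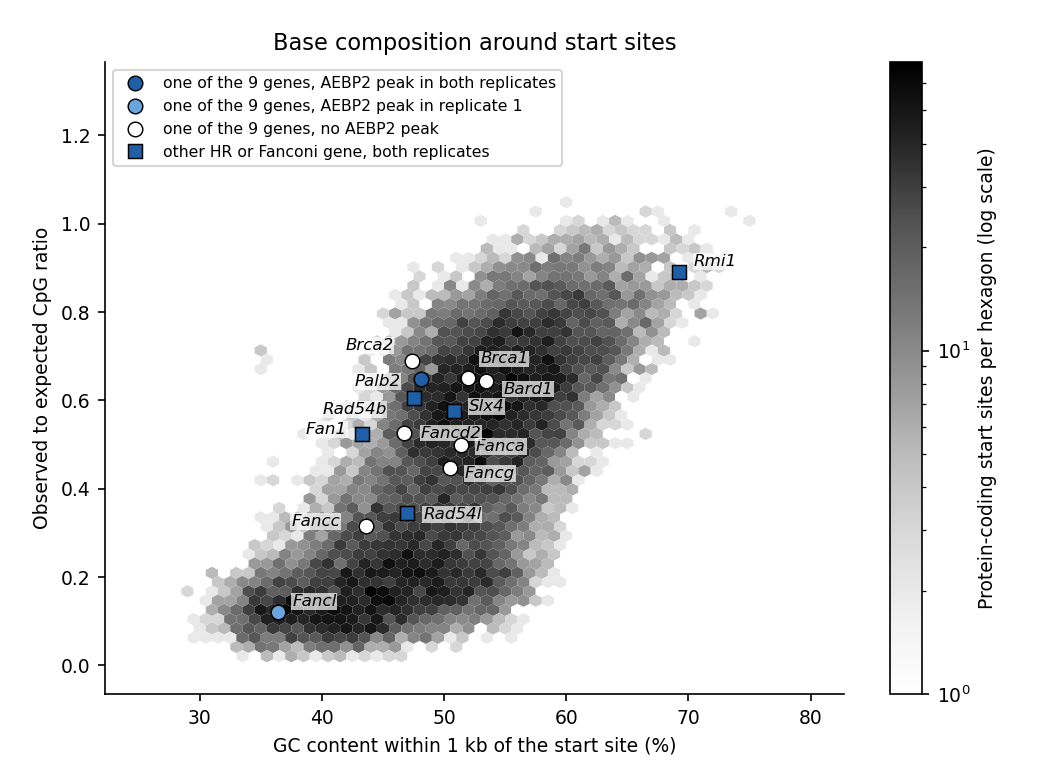
GC content in percent (x axis) against the observed to expected CpG ratio (y axis) of the 2 kb around start sites; grey hexagons count all 22367 protein-coding starts on a log scale, circles are the 9 genes and squares the other homologous recombination and Fanconi genes with AEBP2 in both replicates. Palb2 (48.1% GC, ratio 0.647) lies among Brca1, Brca2 and Bard1, which had no AEBP2 peak.

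A wider list of 65 genes of homologous recombination and the Fanconi pathway, which includes the 9, was counted in the same way. AEBP2 had a peak at 7 of the 65 in replicate 1 (10.8%, against 9.08% of all starts), at 18 in replicate 2 (27.7%, against 22.3%) and in both replicates at 6 (9.23%, against 8.44%), all close to the shares over all starts. H3K27me3 and FS2-AEBP2 were each found at 1 of the 65 (1.54%, against 19.8% and 6.53% of all), and it was the same gene, Mad2l2. AEBP2 of either replicate without H3K27me3 was found at 18 (27.7%, against 11.5%). AEBP2 of both replicates without H3K27me3 was found at 6 (9.23%, against 2.40%), with Palb2, chosen for its peak, among them. Of the 65 windows, 59 hold a CpG-island-like region. Among the 51 such genes outside the 9, AEBP2 in both replicates was found at 3 (5.88%), beside 14.9% of all starts with an island. None of these 3 had H3K27me3, and 4.29% of all starts with an island had AEBP2 in both replicates without it. AEBP2 of either replicate without H3K27me3 was found at 13 of the 51 (25.5%), beside 20.3%. Without AEBP2 replicate 2 the 18 genes fell to 7, since 11 of them had a peak in that replicate only.

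The 6 genes with AEBP2 in both replicates were Palb2, Fan1, Rad54l, Slx4, Rmi1 and Rad54b. Fan1 encodes a nuclease that modified FANCD2 brings to crosslinks, and its peaks had scores of 39 and 55, above 97.7% and 98.6% of their lists, with lengths of 390 and 486 bp. Rad54l encodes a DNA motor protein of recombination, and its peaks had scores of 36 and 63, above 97.5% and 99.0% of their lists, with lengths of 459 and 1009 bp. Fan1 and Rad54l stood next to Palb2 in score, though well under it. Rad54l starts 150 bp from Pomgnt1 on the opposite strand, so its peaks too may belong to either gene.

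The other 3 genes had lower scores. Slx4, a scaffold for nucleases that cut repair intermediates, had scores of 15 and 29, above 85.0% and 93.1% of the lists. Rmi1, a partner of the BLM helicase, had scores of 4 and 9, and Rad54b, a relative of Rad54l, had 2 and 11. Rmi1 lies 746 bp from the start of Hnrnpk on the opposite strand. The peaks of all 6 genes lay over the start site. The median length was 424.5 bp in replicate 1 (169 to 679 bp) and 615 bp in replicate 2 (395 to 1759 bp). The replicate 2 peaks of Rmi1 (1759 bp) and Rad54l (1009 bp) were longer than the median of that list, 855 bp, and the others were shorter than the median of their list.

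**Figure D4:**
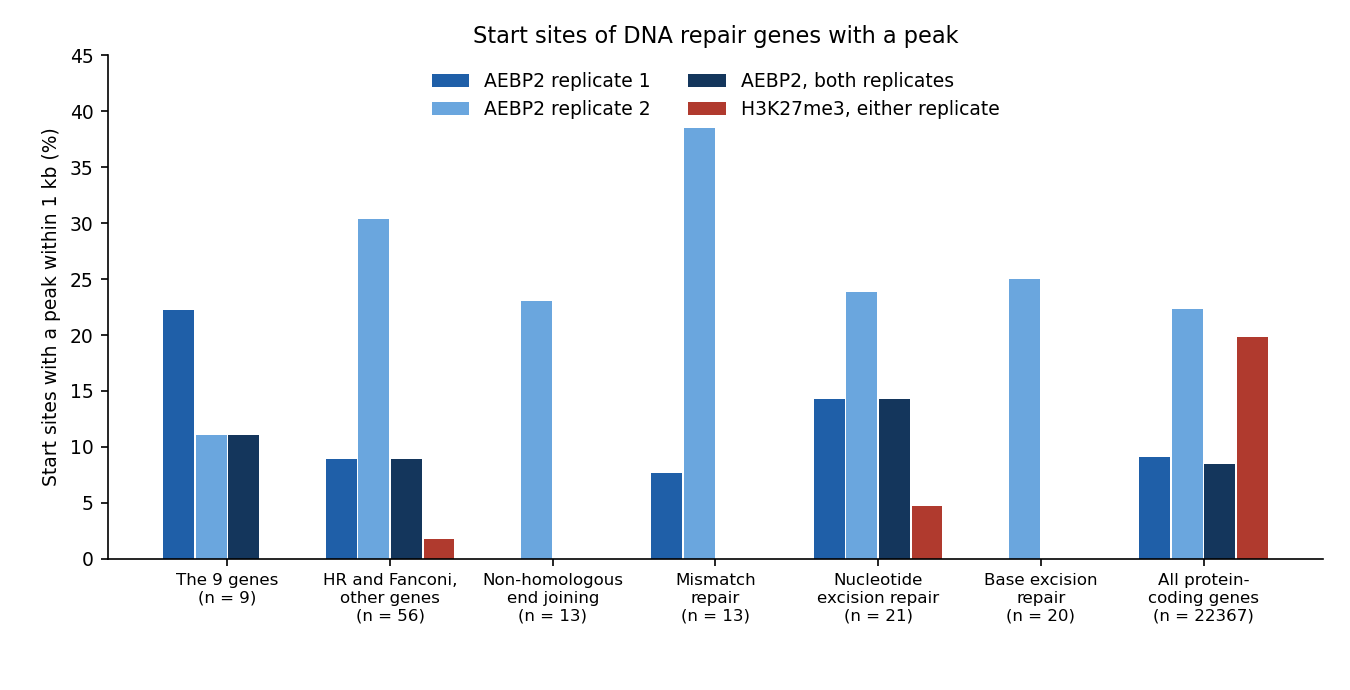
Percentage of start sites with a peak within 1 kb (y axis) for the 9 genes, the other 56 homologous recombination and Fanconi genes, 4 further repair pathways and all 22367 protein-coding genes; bars are AEBP2 replicate 1, replicate 2, both replicates, and H3K27me3 of either replicate. H3K27me3 is at 0% for the 9 genes and 19.8% for all genes, and AEBP2 replicate 2 is the tallest bar of every group except the 9 genes.

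**Figure D5:**
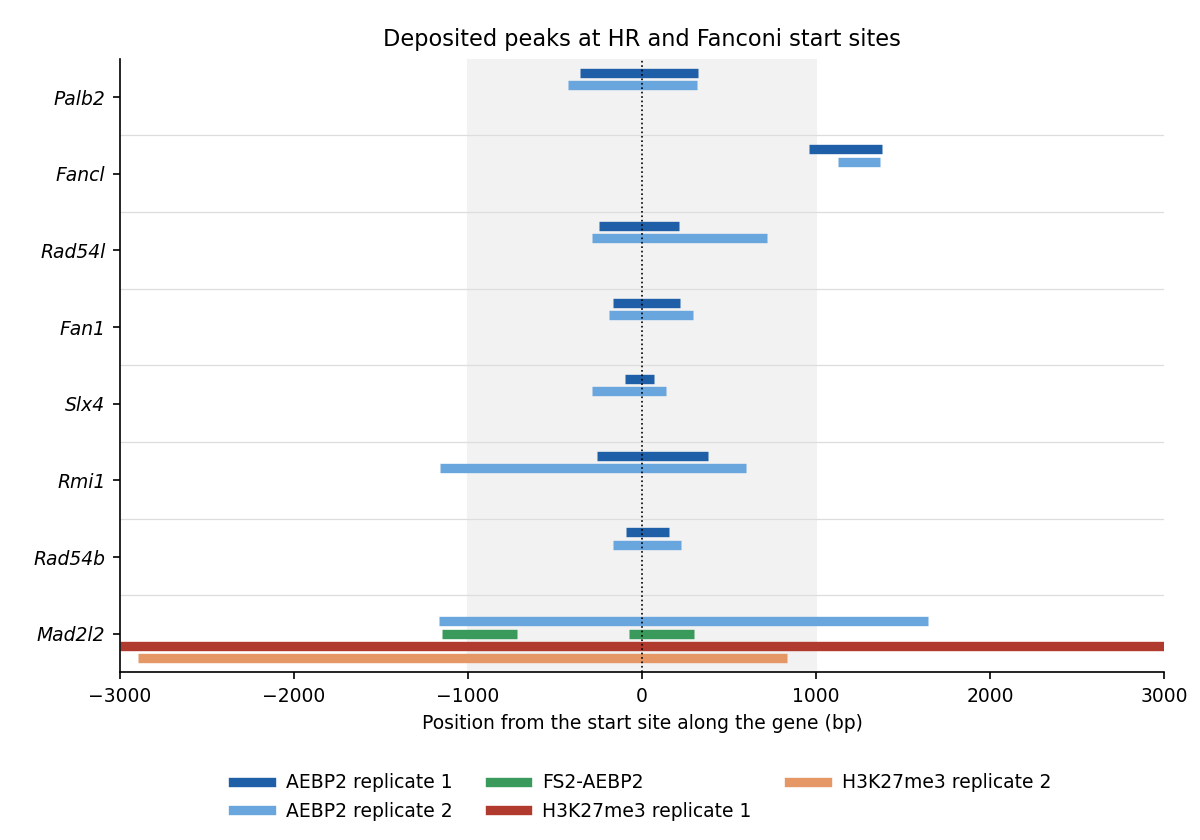
Peaks of the 5 lists (coloured bars) at 8 start sites, by position along the gene in bp from the start of the gene record; the shaded band is the 1 kb window and bars are drawn to 3 kb on either side. The AEBP2 bars of Palb2, Rad54l, Fan1, Slx4, Rmi1 and Rad54b cross the start site with no H3K27me3 bar, those of Fancl lie around 1 kb after it, and Mad2l2 has a longer AEBP2 bar together with FS2-AEBP2 and H3K27me3.

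Mad2l2, which encodes the REV7 protein of translesion synthesis and end protection, was the only gene of the wider list with H3K27me3. Its H3K27me3 peaks measured 9951 bp with a score of 20 in replicate 1 and 3728 bp with a score of 34 in replicate 2, which was above 99.0% of the list. Its AEBP2 peak, in replicate 2 only, measured 2809 bp with a score of 14, and FS2-AEBP2 had peaks of 432 and 376 bp there. Mad2l2 thus had the long mark and the tagged protein that the 6 genes lacked. A second gene, 2610109H07Rik, starts close by on the opposite strand.

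The same contrast held over all protein-coding starts, where it was already known when these genes were chosen. At the 537 starts with AEBP2 in both replicates and no H3K27me3, the AEBP2 peaks had a median length of 448 bp in replicate 1 and 667 bp in replicate 2, and FS2-AEBP2 was found at 5.21%. At the 1351 with AEBP2 in both replicates and H3K27me3, the medians were 2044 bp and 2839 bp, and FS2-AEBP2 was found at 76.1%. These medians take the highest-scoring peak at each start, so a long peak over several starts was counted at each of them. The median scores were equal between these sets of starts, 8 in replicate 1 and 16 in replicate 2. The scores of the 6 genes had a median of 25.5 in replicate 1 and 42 in replicate 2, a value that the choice of Palb2 raises.

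The genes whose pattern was most like that of Palb2 were found by the distance between the within-list score percentiles of all 5 lists, over all 22367 genes. Dctn5 came first at 0 percentile points, since it shares the peaks. It was followed by Rpl22, a ribosomal protein gene (0.0377 points, scores 127 and 193), Snrpb2, a gene of the U2 splicing particle (0.0755 points, scores 137 and 142), Snx18, a sorting nexin gene (0.146 points, scores 103 and 140), and Pomt1, a glycosyltransferase gene (0.249 points, scores 103 and 118). By this choice all 5 had AEBP2 in both replicates, no FS2-AEBP2 and no H3K27me3. All 5 also had a CpG-island-like region, as did 528 of the 537 starts with AEBP2 in both replicates and no H3K27me3. None of them is a recombination or Fanconi gene.

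Fan1 and Rad54l were unusual in having AEBP2 without a CpG-island-like region in the window. Of the 10045 protein-coding starts with no such region, 49 (0.488%) had AEBP2 in both replicates and 9 had it without H3K27me3. These 9 were Ccdc93, Spg11, Flad1, Rad54l, Pomgnt1, Sumf2, Fan1, Adad2 and Fam151b, where Rad54l and Pomgnt1 share 1 promoter. The GC content of the Rad54l window was 46.9% with a CpG ratio of 0.346, and that of the Fan1 window was 43.3% with a ratio of 0.524.

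Words known from housekeeping promoters were searched on both strands of the windows. The E2F word TTTCCCGC, from the binding site of factors that drive genes of DNA replication and repair, was found in the windows of Brca2, Fancd2, Fancg and Bard1, which had no AEBP2 peak, and in 5.21% of all windows. It also lay outside the window but under the AEBP2 peaks at the inner starts of Fancl and Fancc, and counted from every coding transcript start it was found at 7 of the 9. The ETS word CCGGAAG was found at Palb2, Brca1, Fancd2 and Fancg and in 24.4% of all windows. At Palb2 it lay from 124 to 118 bp before the start, under both AEBP2 peaks. The NRF1 word GCGCATGC was found in the window of Fancc alone of the 9, at the inner start of Fancl under an AEBP2 peak, and in 7.01% of all windows, 29.98% of those with AEBP2 in both replicates and no H3K27me3 and 5.02% of those with no AEBP2. In the wider list it lay under both AEBP2 peaks at Fan1, 200 bp after the start, and at Rad54b, 51 bp before it.

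The remaining words were present in 0, 1, 5 and 8 of the 9 windows around the start of the gene record. The YY1 word AAGATGG was found at 5 of the 9 and in 35.6% of all windows. The CRE word TGACGTCA was found at Brca2 only, 29 bp before the start, and in 3.90% of all. The word CTCGCGAG was found at none of the 9 and in 2.32% of all, and the second E2F word TTCCCGCC, which can overlap the first by 7 letters, at none and in 9.42%. At the inner start of Fancl, outside that window, TTCCCGCC was present under the AEBP2 peak, as the printed stretch shows. In the wider list it lay under both AEBP2 peaks at Rad54b, 12 bp before the start, and at Rmi1, 73 and 179 bp after it. CTCGCGAG also lay under both peaks at Rmi1, 50 bp before the start. CCAAT, a short word, was found at 8 of the 9 and in 91.6% of all. For TTTCCCGC the share was 9.31% of windows with AEBP2 in both replicates and no H3K27me3 and 4.14% of those with no AEBP2. In the same groups it was 37.4% and 22.9% for CCGGAAG, 18.4% and 7.66% for TTCCCGCC, and 9.50% and 1.42% for CTCGCGAG. It was 38.9% and 36.9% for AAGATGG, 3.72% and 3.71% for TGACGTCA, and 88.3% and 92.7% for CCAAT. An island lay at 528 of the 537 in the first group and 55.1% of all starts. AEBP2 of replicate 2 was found at 39.0% of starts with an island and 1.76% of those without. The share of islands among starts with no AEBP2 is therefore below 55.1%, and the groups were not matched. A match gives letters and not a bound factor.

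The word ATCGA, capitalised in the stretches above, was picked after the sequences had been seen, from a scan of short words in promoters with high AEBP2 scores, so its counts on these same promoters are a description. Within 300 bp of the start it was present at 15.9% of all protein-coding starts and at 18.6% of those with a CpG-island-like region but neither AEBP2 nor H3K27me3. It was present at 29.6% of the 537 starts with AEBP2 in both replicates and no H3K27me3, and at 16.9% of the 1351 with H3K27me3. Among the 537 it was present at 23.9% with a replicate 1 score under 10, at 42 of 150 with a score from 10 to 29, and at 55.1% (43 of 78) with a score of 30 or more. These groups were not matched on base composition. Genes that share a promoter and its peak, as Palb2 and Dctn5 do, were each counted as a start, so the starts are not all separate sites.

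Palb2 held the word at 2 places, from 52 to 48 bp and from 231 to 227 bp before the start, both under the AEBP2 peaks. None of the other 8 genes held it within 300 bp of the start of its record. Of the 6 genes with AEBP2 in both replicates, 4 held it: Palb2, Fan1 (from 65 to 61 bp before the start), Rad54l (from 14 to 10 bp before) and Rmi1 (from 196 to 192 bp before). Slx4 and Rad54b did not, nor did the stretch at the second start of Fancl. The 3 genes with the highest AEBP2 scores of the wider list were among these 4. The word was picked from promoters with high scores, so this is no separate result. Whether it takes part in AEBP2 binding was not tested.

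The lists held the mark and the protein at genes where PRC2 is known to act. The genes counted for this were chosen with earlier results of these data known, so it is not an independent check. Of 12 developmental PRC2 targets such as Hoxa9, Pax6 and Sfrp1, all 12 had H3K27me3 in both replicates, 11 had AEBP2 in replicate 1, 12 in replicate 2 and 11 had FS2-AEBP2. Of 10 genes active in mESCs such as Pou5f1, Nanog and Sox2, none had endogenous AEBP2, and 1 (Klf4) had H3K27me3 in replicate 1 and FS2-AEBP2. The score of Palb2 was higher in both AEBP2 lists than at any protein-coding start with H3K27me3 and AEBP2 in both replicates, where the highest were 99 and 112. Palb2 was chosen for its high score, so this is a description and not a finding.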

How the data were processed

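The authors aligned the ChIP-seq reads to mm9 and called peaks in each sample. The submitters' processing notes name Bowtie, SAMtools, Picard and MACS2 2.0.10.2, without roles. The deposited files give peak coordinates and a whole-number score whose scale is not stated. They hold no read counts, so depth is unknown, and a threshold or depth that differed between samples would change the numbers of peaks. Autosomes 1 to 19, X and Y were kept. A start site was the 5′ end of the gene record in GENCODE vM1, and an overlap of 1 bp counted. To find CpG-island-like regions, 500 bp windows in 10 bp steps that reached 55% GC and a CpG ratio (observed over expected) of 0.65 were merged. Sequences were read from the mm9 genome. In the wider list 56 symbols matched directly, 7 by older symbols and 2 through RefSeq synonyms. Rad54b has 2 gene records and the longest was used. The members, lists and words were chosen with earlier results of these data known. The genes named include the 9, their opposite-strand neighbours, genes at their nearest peaks and the 5 most like Palb2. Of the wider list, those with AEBP2 in both replicates or with H3K27me3 were named. Of the other repair lists, those with the highest AEBP2 scores, H3K27me3 or FS2-AEBP2 were named. Other genes of these lists with a peak were mostly left unnamed. The genes without an island were named after their values were seen. No test was run. Other windows, score limits, overlaps and start sites, and leaving out each replicate, were tried. Overlap counting was tested on simulated data. Python 3.11.15, numpy 2.4.6, scipy 1.17.1, pysam 0.24.0, matplotlib 3.10.9 and samtools 1.23.1 were used. Some items are not reported here.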

Additional observations from a re-analysis of the deposited data

How the results depend on the processing

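Of 74 values recomputed for 10 results, 54 stayed within 1.5 times the reported count or within its interval, 9 rose and 11 fell. The counts of 0 among the 9 genes for FS2-AEBP2 and for each H3K27me3 replicate, and the count of 1 of 65 for H3K27me3, did not move in any of them. The 9 genes with AEBP2 replicate 1 went from 2 to 1, and those with AEBP2 of either replicate without H3K27me3 from 2 to 1, with 500 bp on either side, with scores at or above the list median, and with at least 200 bp of the window covered. The gene lost was Fancl. With all coding transcript starts, AEBP2 of either replicate without H3K27me3 was found at 3 of the 9 (Palb2, Fancc and Fancl). Those with AEBP2 replicate 2 went from 1 to 2 with 2.5 kb or 5 kb on either side and to 3 with all coding transcript starts (Palb2, Fancl and Fancc), and those with both replicates from 1 to 2 in the same 3 settings. Leaving out each replicate in turn gave 1 to 2 of the 9 with AEBP2 and no H3K27me3 (1 without AEBP2 replicate 1), and 7 to 18 of the 65 (7 without AEBP2 replicate 2). Scores at or above the median gave 11 of the 65. The share of all protein-coding starts with AEBP2 and no H3K27me3, 11.5% (95% Wilson interval 11.1 to 11.9, counting error only), was 12.1% with 5 kb on either side, 6.38% with scores at or above the median, 11.96% with all coding transcript starts, and from 2.75% (without AEBP2 replicate 2) to 12.2% (without H3K27me3 replicate 2) with a replicate left out. No paired analysis was possible because no result comes from a test. Depth is unknown, so a weak site and an absent one cannot be told apart, and FS2-AEBP2 has no replicate.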

Other observations

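Other DNA repair pathways were counted beside homologous recombination from lists of the same kind. Over all protein-coding starts, AEBP2 had a peak at 9.08% in replicate 1, 22.3% in replicate 2 and 8.44% in both. Of 13 genes of non-homologous end joining, which rejoins broken ends directly, 3 (23.1%) had AEBP2 in replicate 2 and 0 in replicate 1. Of 13 mismatch repair genes, 5 (38.5%) had AEBP2 in replicate 2, 1 in replicate 1 and 0 in both. Of 20 base excision repair genes, 5 (25%) had AEBP2 in replicate 2 and 0 in replicate 1. Of 21 nucleotide excision repair genes, 5 (23.8%) had AEBP2 in replicate 2 and 3 had AEBP2 in both replicates, and the highest scores were those of Ercc2, which encodes a helicase of TFIIH (61 and 119). Ercc2 was thus the repair gene next to Palb2 in AEBP2 score.

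Over the 67 genes of these 4 lists, AEBP2 was found in both replicates at 3 (4.48%). It was found at 6 (9.23%) of the 65 recombination and Fanconi genes and 8.44% of all starts. None of these 3 or 6 genes had H3K27me3, and 2.40% of all starts had AEBP2 in both replicates without it. AEBP2 of either replicate without H3K27me3 was found at 18 of the 67 (26.9%), beside 18 (27.7%) of the 65 and 11.5% of all starts. H3K27me3 was found at 1 of the 67, Ercc6 in replicate 2, and FS2-AEBP2 at 1, Gtf2h5. A CpG-island-like region lay at 56 of the 67. No test of a difference between pathways was run, since the lists were chosen with the peaks known.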
